A study of Homo sapiens with 8 samples.

Results

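The SERPINB genes are the clade B serpins, and the 10 described here (SERPINB1, SERPINB2, SERPINB3, SERPINB4, SERPINB5, SERPINB6, SERPINB7, SERPINB8, SERPINB9, and SERPINB13) were taken by gene name from the 34164 genes listed in either of 2 expression tables; the rule uses no value, but the set was chosen with earlier results of these data known. All 10 are listed in both tables. Serpins are single-use inhibitors: the target protease cuts an exposed loop of the serpin, the serpin changes shape, and the protease stays trapped. Clade B serpins lack a classical signal peptide and work mainly inside the cell, and several of them are abundant in stratified squamous epithelium, where SERPINB3 and SERPINB4 are known as the squamous cell carcinoma antigens. Of the 10 genes, 7 lie in a cluster on chromosome 18 and 3 (SERPINB1, SERPINB6, and SERPINB9) in a second cluster on chromosome 6.

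RNA-seq was performed on Kyse510 cells, an established human esophageal squamous cell carcinoma (ESCC) line, as 8 single libraries, 1 for each condition. In the inhibitor table, the control received vehicle. The treatments of 2 days were 7 µM SP2509 against the histone demethylase LSD1, 7 µM UNC0642 against the histone methyltransferase G9a, and the pair of inhibitors together. The labels give no duration for vehicle and no separate dose for the combination. In the knockdown table, Kyse510 cells carried a doxycycline- (Dox-) inducible hairpin against LSD1 (shLSD1) or G9a (shG9a), underwent 14 days of puromycin selection, and were sequenced without Dox or after 2 days of Dox. No library combined Dox with a nonsilencing hairpin, so the effects of Dox and of the hairpin cannot be told apart, and each hairpin was studied in 1 stable line. Levels are FPKM, fragment counts scaled to gene length and library size. The reads behind each value were estimated from the steps between FPKM values, and every interval below is a 95% exact interval of counting error only; with 1 library per condition it compares libraries, not conditions, and no test between conditions was possible.

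The libraries held 15662035 to 17889466 reads. KDM1A, the gene of LSD1, was 26.0 FPKM without and 6.29 FPKM with Dox in the shLSD1 line, and EHMT2, the gene of G9a, was 7.85 FPKM without and 4.76 FPKM with Dox in the shG9a line. KDM1A was called up with Dox in the shG9a line. With the combination of inhibitors, 1 of these 2 genes was called down. All 6 squamous markers examined (KRT5, TP63, DSG3, KRT14, KRT6A, and SOX2) reached 1 FPKM in at least 1 library, and their summed level ranged from 146 to 904 FPKM. The 3 listed glandular markers summed to between 0 and 1.3 FPKM, with KRT20 the one that reached 1 FPKM, and the 3 blood cell markers to between 0 and 0.311 FPKM. The 4 fibroblast and endothelial markers summed to between 3.26 and 6.71 FPKM, most of it COL1A1. Squamous markers themselves went both ways, shown here with the shares of all genes tested called up and down. With SP2509, 4 of 6 that passed 1 FPKM were called up and 1 down (18% and 37.3%). With UNC0642, 2 of 6 were up and 3 down (15.6% and 13.8%), and with the combination 2 of 6 up and 4 down (28.8% and 28.9%). In the shLSD1 line 1 of 5 was up and 1 down (22.4% and 10.4%). In the shG9a line 4 of 6 were up and 1 down (29.9% and 15.7%). The part of these markers in the results was not tested.

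The promoters of the genes with the largest differences are shown first, because SERPINB3 and SERPINB4 have nearly the same one. Sequences are from RefSeq (GRCh38.p14) and are the 250 bases before the RefSeq start, on the strand of the gene, 5′ to 3′. A window was found for all 10 genes, 15 windows in all, since SERPINB6 and SERPINB7 have several starts. The windows of SERPINB3 (chr18:63661894-63662143, minus strand) and SERPINB4 (chr18:63644257-63644506, minus strand) are identical at 247 of 250 bases, and the capitals mark the bases that differ.
SERPINB3: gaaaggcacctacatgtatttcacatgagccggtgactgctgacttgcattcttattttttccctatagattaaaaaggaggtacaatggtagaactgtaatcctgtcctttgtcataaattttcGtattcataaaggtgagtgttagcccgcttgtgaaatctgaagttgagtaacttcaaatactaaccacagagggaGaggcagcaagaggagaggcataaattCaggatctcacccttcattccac
SERPINB4: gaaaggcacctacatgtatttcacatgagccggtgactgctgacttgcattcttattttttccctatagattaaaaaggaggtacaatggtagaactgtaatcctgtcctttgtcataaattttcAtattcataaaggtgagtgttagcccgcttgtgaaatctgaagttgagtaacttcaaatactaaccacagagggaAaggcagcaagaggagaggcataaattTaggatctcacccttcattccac
Counted from 1 at the 5′ end of the window, with the SERPINB3 base first, the 3 differences are G126A, G201A, and C228T. The next most alike pair of windows among the 10 genes, SERPINB6 and SERPINB7, matched at 57.6% of 250 bases. For the 3 genes below, the capitals mark matches to the AP-1 motif TGANTCA, which reads the same on both strands. The windows are those of SERPINB2 (chr18:63887455-63887704, plus strand), the most downstream of 3 starts of SERPINB7 (chr18:63777531-63777780, plus strand), and SERPINB13 (chr18:63587093-63587342, plus strand).
SERPINB2: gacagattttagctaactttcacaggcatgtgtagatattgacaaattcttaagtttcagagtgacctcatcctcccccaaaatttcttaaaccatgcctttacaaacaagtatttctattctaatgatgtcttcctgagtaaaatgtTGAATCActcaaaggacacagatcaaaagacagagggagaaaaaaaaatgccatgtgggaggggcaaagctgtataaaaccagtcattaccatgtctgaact
SERPINB7: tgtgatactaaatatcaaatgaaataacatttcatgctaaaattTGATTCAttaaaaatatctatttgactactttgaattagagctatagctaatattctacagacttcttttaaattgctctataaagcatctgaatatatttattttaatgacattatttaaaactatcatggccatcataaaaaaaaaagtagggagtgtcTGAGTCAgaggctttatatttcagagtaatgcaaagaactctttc
SERPINB13: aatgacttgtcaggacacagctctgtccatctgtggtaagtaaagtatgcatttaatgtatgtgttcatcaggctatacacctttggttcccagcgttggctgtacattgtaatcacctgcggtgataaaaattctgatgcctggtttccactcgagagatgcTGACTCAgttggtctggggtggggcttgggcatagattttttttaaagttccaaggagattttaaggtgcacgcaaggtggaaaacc
The AP-1 match of SERPINB2 began 102 bases before the start and that of SERPINB13 began 87 bases before it, whereas SERPINB7 had matches at 206 and 45 bases. An AP-1 match was found in 5 of the 7 chromosome 18 genes (SERPINB2, SERPINB5, SERPINB7, SERPINB8, and SERPINB13) and in 0 of the 3 chromosome 6 genes. For comparison, 6.57% of 35116 windows of the same length across the genome held one. That share is per window, whereas a gene with several starts was counted if any of its windows held a match. The most upstream of the 3 SERPINB7 windows held no AP-1 match. The starts used for the printed SERPINB2 and SERPINB7 windows lie 16013 and 24846 bases from the listed starts of these genes. The windows of SERPINB3 and SERPINB4 held none of the 5 motifs searched on both strands, the other motifs being STAT (TTCNNNGAA, in 6.57% of windows), the TATA box (TATAAA, 10.7%), CRE (TGACGTCA, 1.65%), and the E-box (CACGTG, 6.34%). These motifs were chosen after the values were seen, and a match describes the letters of the window and is not evidence of binding.

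**Figure D1:**
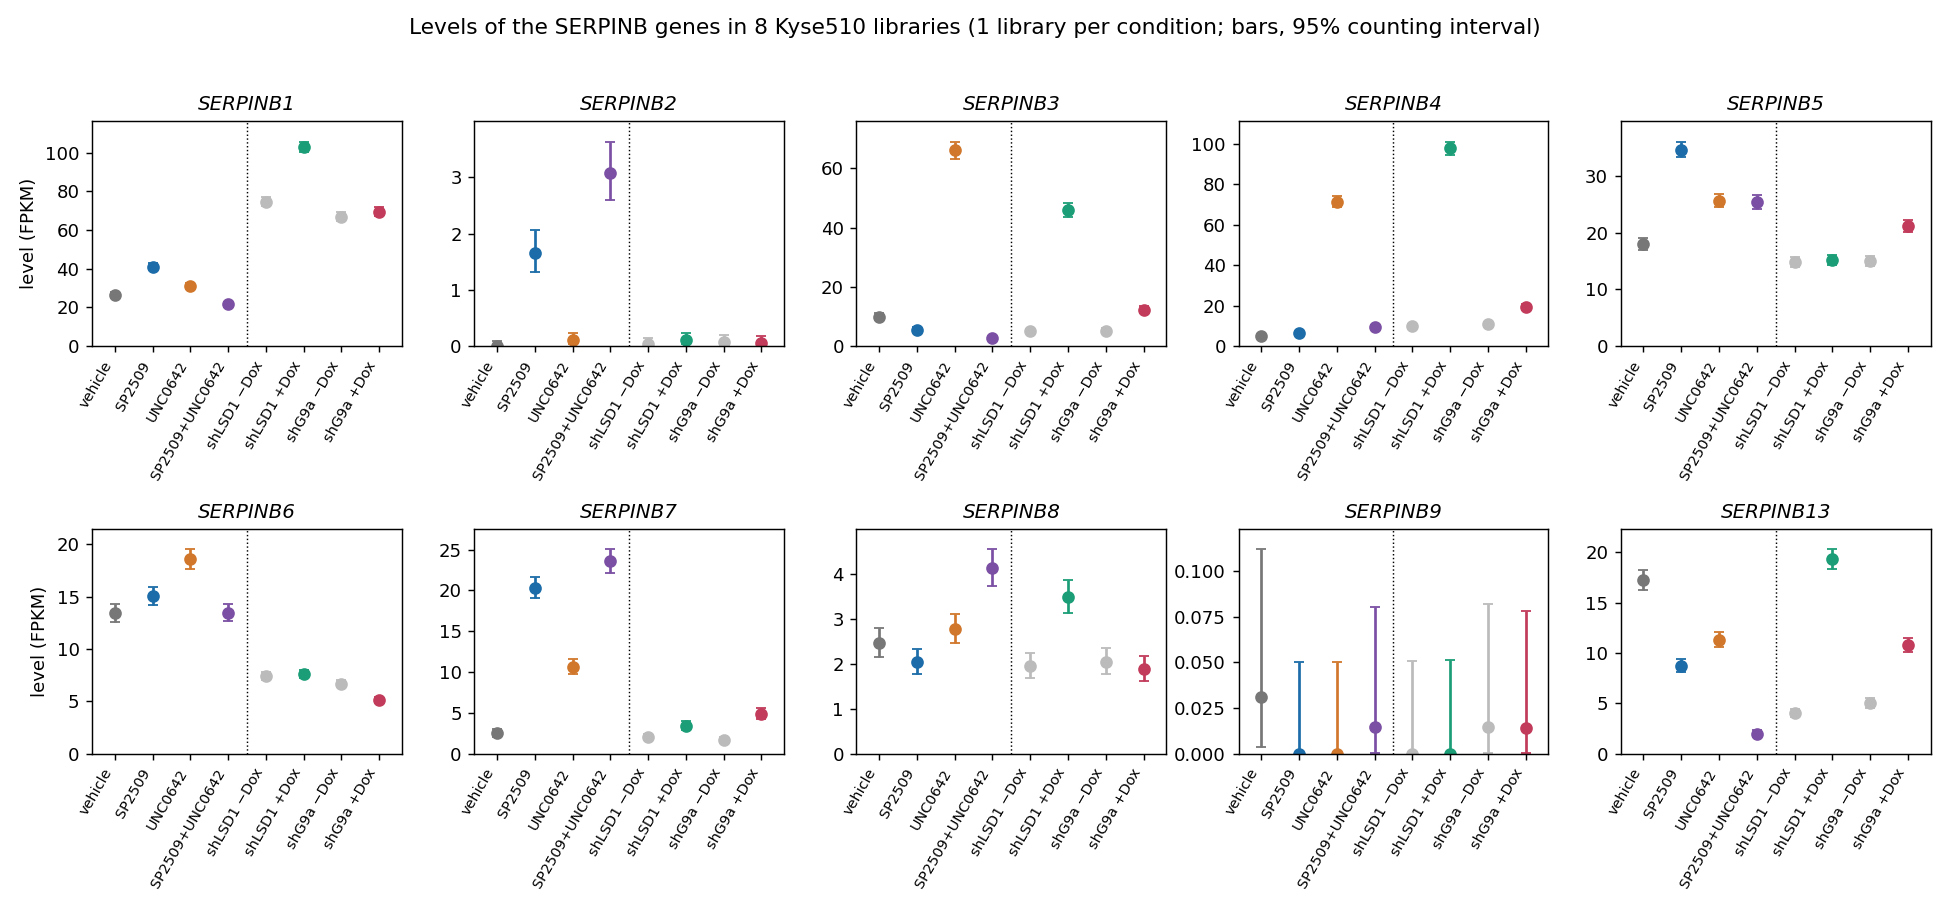
FPKM of each SERPINB gene (linear axes from 0, a scale of its own per gene) in the 4 inhibitor libraries, left of the dotted line, and the 4 knockdown libraries, right of it; points are single libraries and bars the 95% counting interval. SERPINB3 and SERPINB4 stand highest with UNC0642 and in the shLSD1 line with Dox, SERPINB7 with SP2509 and with the combination, and SERPINB13 is lowest with the combination, at 2.00 FPKM.

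Each treated library was compared with its own control. A gene was called when the ratio of (FPKM + 1) was at least 1.3 in either direction, at least 1 of the 2 libraries reached 1 FPKM, and the counting interval of the read ratio left out 1. Fold changes are ratios of FPKM without the added 1, and log2 values are of (FPKM + 1). Shares of genes given as having risen or fallen more rank genes by these log2 values, not by fold change. Of the 10 genes, 9 passed the 1 FPKM filter with SP2509 and with the combination and 8 in each other comparison, where SERPINB2 did not pass. SERPINB9 never passed. SERPINB2 passed only through the treated library.

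With SP2509, 4 SERPINB genes were called up (SERPINB1, SERPINB2, SERPINB5, and SERPINB7) and 2 down (SERPINB3 and SERPINB13), while 18% of the 13342 genes tested were called up and 37.3% were called down. The median log2 change was 0.23 for the 9 genes that passed and −0.21 for all genes tested. With UNC0642, 5 were up (SERPINB3, SERPINB4, SERPINB5, SERPINB6, and SERPINB7) and 1, SERPINB13, was down, against 15.6% of 13244 genes up and 13.8% down, with medians of 0.47 and −0.01. With the combination, 5 were up (SERPINB2, SERPINB4, SERPINB5, SERPINB7, and SERPINB8) and 2 were down (SERPINB3 and SERPINB13), against 28.8% of 13907 genes up and 28.9% down, with medians of 0.48 and −0.02. The medians with SP2509 and with the combination are the same with SERPINB2 set at its lower bound. These 3 comparisons share the vehicle library. In bulk RNA, a change in the share of cells that express a gene and a change per cell cannot be told apart.

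With Dox, calls among the SERPINB genes were increases in both lines. The shLSD1 line had 6 SERPINB genes up (SERPINB1, SERPINB3, SERPINB4, SERPINB7, SERPINB8, and SERPINB13) and 0 down, while 22.4% of 12970 genes were called up and 10.4% down, and the median was 0.58 against 0.13 for all genes tested. The shG9a line had 5 up (SERPINB3, SERPINB4, SERPINB5, SERPINB7, and SERPINB13) and 0 down, while 29.9% of 13080 genes were called up and 15.7% down, with medians of 0.63 and 0.18. Among genes of at least 5 FPKM in both libraries, the median log2 ratio was −0.10 with SP2509, 0.12 in the shLSD1 line, and 0.15 in the shG9a line, so calls near the threshold depend on this shift. Relative to it, SERPINB1 in the shLSD1 line and SERPINB5 in the shG9a line were no longer called and SERPINB6 in the shG9a line was called down, with a log2 change of −0.47; no other call of a member changed with this centring. The 2 lines without Dox differed little from each other, with 0 SERPINB genes called up or down among 8 that passed, against 1.26% of 12449 genes up and 2.07% down.

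**Figure D2:**
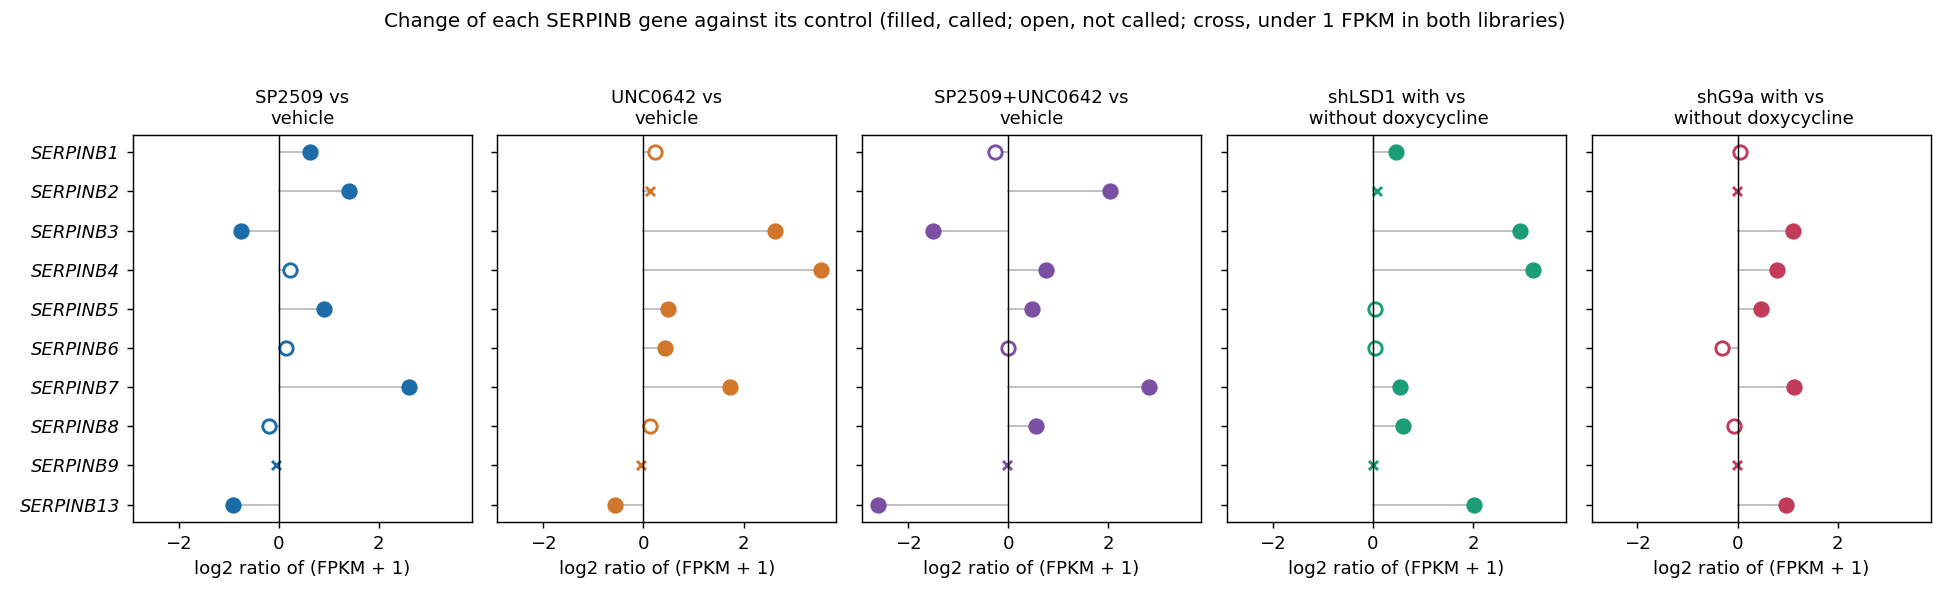
Log2 ratio of (FPKM + 1) of each SERPINB gene against its control in the 5 comparisons; filled circles were called, open circles were not, and crosses are genes under 1 FPKM in both libraries. SERPINB7 lies to the right of 0 in all 5 panels, and SERPINB13 to the left of 0 in the 3 inhibitor panels and to the right in both knockdown panels.

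SERPINB3 and SERPINB4 reached the highest levels of the chromosome 18 genes, with UNC0642 and in the shLSD1 line with Dox. The protein of SERPINB3 inhibits papain-like cysteine proteases such as cathepsins L, S, and K, and that of SERPINB4 inhibits chymotrypsin-like serine proteases such as cathepsin G. SERPINB4 (ENSG00000206073, chr18:63637259-63644298, minus strand) was 5.20 FPKM in the vehicle library, 6.28 after SP2509, 71.4 after UNC0642, and 9.48 after both inhibitors. It was 9.79 FPKM without and 97.8 FPKM with Dox in the shLSD1 line, and 10.8 FPKM without and 19.4 FPKM with Dox in the shG9a line. The UNC0642 library and the shLSD1 library with Dox therefore stood apart from the other 6. The increase was 13.7-fold with UNC0642 (interval 11.7 to 16.2, log2 3.55), and 0.0302% of the genes tested had a higher log2 change. It was 9.99-fold in the shLSD1 line (8.94 to 11.2), where 0.0231% of genes had a higher log2 change, and 1.80-fold in the shG9a line (1.58 to 2.06). With SP2509 alone, SERPINB4 was not called, at 1.21-fold (0.982 to 1.49).

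SERPINB3 (ENSG00000057149, chr18:63655197-63661963, minus strand) was 9.81 FPKM in the vehicle library, 5.44 after SP2509, 66.0 after UNC0642, and 2.80 after both inhibitors. It was 5.07 FPKM without and 45.8 FPKM with Dox in the shLSD1 line, and 5.10 FPKM without and 12.2 FPKM with Dox in the shG9a line. The same 2 libraries were high as for SERPINB4. SERPINB3 rose 6.73-fold with UNC0642 (5.93 to 7.66), 9.03-fold in the shLSD1 line (7.66 to 10.7), and 2.39-fold in the shG9a line (1.98 to 2.91). It went the other way with SP2509, where it was 1.80-fold lower than with vehicle (1.49 to 2.20), and with the combination, where it was 3.50-fold lower (2.73 to 4.53). Both genes were thus high with the G9a inhibitor and with the LSD1 hairpin, whereas with the LSD1 inhibitor SERPINB3 was lower and SERPINB4 was not called.

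The 2 genes did not keep a fixed proportion to each other across the inhibitor libraries. The ratio of SERPINB3 to SERPINB4 FPKM was 1.89 in the vehicle library (1.55 to 2.30), 0.866 after SP2509 (0.706 to 1.06), 0.925 after UNC0642 (0.873 to 0.980), and 0.296 after both inhibitors (0.230 to 0.377). SERPINB3 was thus the higher of the pair with vehicle and the lower with the combination, and these 2 intervals do not overlap. In the shLSD1 line the ratio was 0.518 without (0.427 to 0.626) and 0.468 with Dox (0.440 to 0.498), intervals that overlap, although both genes rose. In the shG9a line it was 0.473 without (0.389 to 0.574) and 0.628 with Dox (0.552 to 0.714), intervals that also overlap. Overlap of 2 separate intervals does not show that a ratio was unchanged, and no interval for the change of the ratio was computed. The transcripts of the pair were identical at 95.7% of aligned bases (1633 identical and 74 mismatched), and 10.9% of their 75-base windows but 0% of their 150-base windows occur in both, and the reads were 150 bases long. How the authors counted reads that match both genes is not given in the sources used here. Taken as 1 gene, SERPINB3 and SERPINB4 summed to 15 FPKM in the vehicle library, 11.7 after SP2509, 137 after UNC0642, and 12.3 after both inhibitors. On this sum the SP2509 and combination libraries were no longer called, with log2 changes of −0.33 and −0.27, so the increase of SERPINB4 with the combination (1.82-fold, 1.50 to 2.21) turned in direction. The increases with UNC0642 (9.36-fold, 8.48 to 10.3), in the shLSD1 line (9.69-fold, 8.84 to 10.6), and in the shG9a line (1.98-fold, 1.78 to 2.20) remained.

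**Figure D3:**
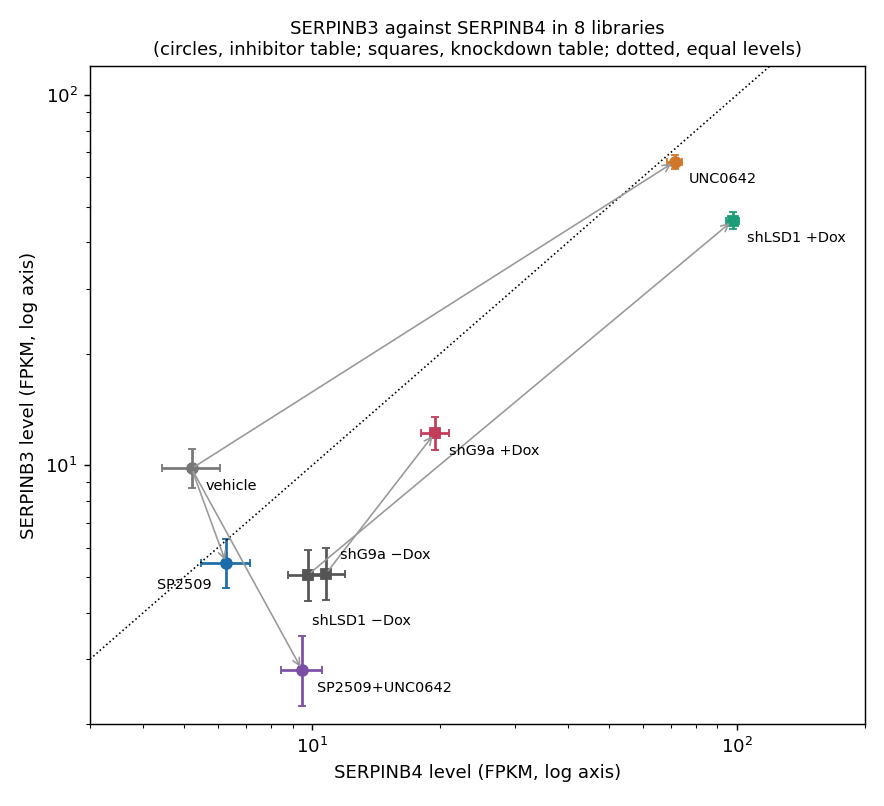
SERPINB3 against SERPINB4, FPKM on log axes, in the 8 libraries; bars are 95% counting intervals, arrows run from each control to its treated library, and the dotted line marks equal levels. Vehicle lies above the line with a ratio of 1.89, the combination lies farthest below it at 0.296, and UNC0642 and the shLSD1 line with Dox lie at the upper right.

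The high level with UNC0642 was absent from the library given both inhibitors, for which no separate doses are stated. The UNC0642 library enters both the rise over vehicle and the fall below, so the rise and the fall are not independent. SERPINB3 was 66.0 FPKM with UNC0642 and 2.80 FPKM with the combination, a 23.6-fold lower level (19.0 to 29.7). Of 13637 genes tested between these 2 libraries, 0.00733% fell more by log2 change. SERPINB4 was 7.53-fold lower with the combination than with UNC0642 (6.71 to 8.49), and 0.0733% of genes fell more by log2 change. SERPINB5, by contrast, was 0.991-fold of its UNC0642 level (0.927 to 1.06), an interval that includes 1.

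SERPINB13 encodes headpin, an inhibitor of cathepsins L and K that is made in stratified epithelium. The gene (ENSG00000197641, chr18:63586989-63604639, plus strand) was 17.3 FPKM in the vehicle library, 8.74 after SP2509, 11.3 after UNC0642, and 2.00 after both inhibitors. It was 4.02 FPKM without and 19.3 FPKM with Dox in the shLSD1 line, and 5.04 FPKM without and 10.8 FPKM with Dox in the shG9a line. Every inhibitor library was below its control and both Dox libraries were above theirs. SERPINB13 was 1.97-fold lower with SP2509 (1.80 to 2.17), 1.53-fold lower with UNC0642 (1.40 to 1.67), and 8.64-fold lower with the combination (7.29 to 10.3). By log2 change, 0.2% of genes fell as far or farther with the combination. The combination library was also 4.37-fold below the SP2509 library (3.67 to 5.25) and 5.65-fold below the UNC0642 library (4.76 to 6.75). With Dox, SERPINB13 was 4.80-fold higher in the shLSD1 line (4.25 to 5.43) and 2.14-fold higher in the shG9a line (1.89 to 2.42). The vehicle level was above both levels without Dox, a difference between libraries of separate tables that was not tested.

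SERPINB2 encodes plasminogen activator inhibitor 2, which inhibits the urokinase encoded by PLAU and the tissue activator encoded by PLAT. The gene (ENSG00000197632, chr18:63871692-63903890, plus strand) had 0 reads in the vehicle library, 81 after SP2509, 5 after UNC0642, and 143 after both inhibitors, or 1.66 FPKM with SP2509 and 3.08 FPKM with the combination. In the knockdown table it had 2 to 5 reads in each of the 4 libraries. Expression was thus found above a few reads only in the 2 libraries that received SP2509. Against a floor of 3 reads in the vehicle library, SERPINB2 was at least 23.8-fold higher with SP2509 and at least 44.2-fold higher with the combination. With the vehicle count taken as 0, the lower 95% counting limits of these ratios were 18.9 and 35.5. The combination exceeded SP2509 alone by 1.86-fold (1.41 to 2.48). The 3′ end of SERPINB2 overlaps SERPINB10 on the same strand, and SERPINB10 was at most 0.920 FPKM in any library.

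SERPINB7 encodes megsin, whose loss causes a keratoderma of the palms and soles. The gene (ENSG00000166396, chr18:63752935-63805376, plus strand) was 2.49 FPKM in the vehicle library, 20.3 after SP2509, 10.6 after UNC0642, and 23.6 after both inhibitors. It was 2.01 FPKM without and 3.40 FPKM with Dox in the shLSD1 line, and 1.67 FPKM without and 4.86 FPKM with Dox in the shG9a line. SERPINB7 was the only one of the 10 genes called up in all 5 comparisons. It rose 8.14-fold with SP2509 (6.64 to 10.1), 4.27-fold with UNC0642 (3.45 to 5.33), and 9.45-fold with the combination (7.71 to 11.7). The increase was 1.69-fold in the shLSD1 line (1.3 to 2.21) and 2.90-fold in the shG9a line (2.22 to 3.84). The combination library was 1.16-fold above the SP2509 library (1.06 to 1.27) and 2.21-fold above the UNC0642 library (1.99 to 2.47).

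SERPINB5 encodes maspin, a clade B serpin that does not inhibit proteases by the usual trap. The gene (ENSG00000206075, chr18:63476761-63505085, plus strand) was 18 FPKM in the vehicle library, 34.6 after SP2509, 25.6 after UNC0642, and 25.4 after both inhibitors. It was 14.8 FPKM without and 15.2 FPKM with Dox in the shLSD1 line, and 15 FPKM without and 21.2 FPKM with Dox in the shG9a line. All 3 inhibitor libraries were above vehicle, by 1.93-fold with SP2509 (1.79 to 2.07), 1.43-fold with UNC0642 (1.32 to 1.54), and 1.42-fold with the combination (1.31 to 1.53). The shLSD1 line gave 1.03-fold (0.941 to 1.12), an interval that includes 1, and the shG9a line 1.41-fold (1.3 to 1.53).

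SERPINB8, an inhibitor of the proprotein convertase furin, was among the lower members. The gene (ENSG00000166401, chr18:63969925-64019779, plus strand) was 2.46 FPKM in the vehicle library, 2.03 after SP2509, 2.77 after UNC0642, and 4.12 after both inhibitors. It was 1.95 FPKM without and 3.48 FPKM with Dox in the shLSD1 line, and 2.04 FPKM without and 1.88 FPKM with Dox in the shG9a line. It was called in 2 comparisons, 1.68-fold up with the combination (1.42 to 1.98) and 1.79-fold up in the shLSD1 line (1.5 to 2.14). HMSD overlaps SERPINB8 on the same strand and was 1.05 to 3.32 FPKM, so reads in the overlap cannot be told apart; HMSD itself was called down with the combination, from 3.32 to 1.05 FPKM, and was not called in the shLSD1 line.

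Of the 3 chromosome 6 genes, SERPINB1 was called in 2 comparisons, SERPINB6 in 1, and SERPINB9 was too low for any statement about its change. SERPINB1, an inhibitor of neutrophil elastase, proteinase 3, and cathepsin G (ENSG00000021355, chr6:2832332-2842006, minus strand), was 26.3 FPKM in the vehicle library, 41.0 after SP2509, 31.1 after UNC0642, and 21.7 after both inhibitors. It was 74.6 FPKM without and 103 FPKM with Dox in the shLSD1 line, and 66.8 FPKM without and 69.4 FPKM with Dox in the shG9a line. SERPINB1 was the highest of the 10 genes in all 4 knockdown libraries and in the vehicle and SP2509 libraries, although with Dox in the shLSD1 line its interval overlapped that of SERPINB4. It rose 1.56-fold with SP2509 (1.45 to 1.67) and 1.38-fold in the shLSD1 line (1.32 to 1.44).

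SERPINB6, an intracellular inhibitor of trypsin-like proteases and cathepsin G (ENSG00000124570, chr6:2948159-2972165, minus strand), was 13.4 FPKM in the vehicle library, 15.1 after SP2509, 18.6 after UNC0642, and 13.5 after both inhibitors. It was 7.40 FPKM without and 7.62 FPKM with Dox in the shLSD1 line, and 6.66 FPKM without and 5.15 FPKM with Dox in the shG9a line. The only call was with UNC0642, at 1.38-fold (1.28 to 1.5). In the shG9a line SERPINB6 was 1.29-fold lower with Dox (1.20 to 1.40) and missed the fold threshold on (FPKM + 1). The length behind its values was 4729 bases in the inhibitor table and 13201 bases in the knockdown table, so its levels cannot be set beside each other across the tables. SERPINB9, the inhibitor of granzyme B (ENSG00000170542, chr6:2887266-2903280, minus strand), had 0 to 2 reads in each of the 8 libraries and was not detectable beyond that at this depth.

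The order of the levels changed with treatment. With vehicle the 3 highest were SERPINB1, SERPINB5, and SERPINB13, and the intervals of the last 2 overlapped. With UNC0642 they were SERPINB4, SERPINB3, and SERPINB1, and the intervals of the first 2 overlapped. With the combination SERPINB5, SERPINB7, and SERPINB1 were highest, with overlapping intervals between neighbours. Summed over the 10 genes, the level was 94.9 FPKM in the vehicle library, 135 after SP2509, 238 after UNC0642, and 106 after both inhibitors, and in the shLSD1 line it was 120 FPKM without and 295 FPKM with Dox. SERPINB3 and SERPINB4 together were 137 FPKM of the sum with UNC0642, and 144 FPKM of the sum in the shLSD1 line with Dox, where SERPINB1 was 103 FPKM.

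On chromosome 18 the 7 genes lie in the order SERPINB5, SERPINB13, SERPINB4, SERPINB3, SERPINB7, SERPINB2, and SERPINB8. The middles of the outermost genes, SERPINB5 and SERPINB8, are about 504 kb apart. The cluster did not move as a unit with the inhibitors. With the combination, SERPINB13 and SERPINB3 fell while SERPINB4, which lies between them, rose, although that increase was not held on the sum with SERPINB3. The other clade B genes of the cluster were low, with SERPINB10 at most 0.920 FPKM, SERPINB12 at most 0.0904 FPKM, and SERPINB11, which spans SERPINB3 on the opposite strand, at most 0.0151 FPKM in the inhibitor table. Of the genes beside the cluster, VPS4B, an ATPase of endosomal sorting, was 12.1 FPKM with vehicle, 14.3 with UNC0642, and 26.2 with the combination, and was called up with the combination and in the shG9a line (9.54 to 15.4 FPKM). KDSR, an enzyme of sphingolipid synthesis, was called up with UNC0642 (4.86 to 6.65 FPKM) and with the combination (8.48 FPKM). Of the 4 neighbours that passed the filter with UNC0642, 1 was called up and 1 down (15.6% and 13.8% of all genes tested). PHLPP1, a phosphatase, was called down with the combination (3.44 to 2.07 FPKM), and BCL2, the apoptosis inhibitor, stayed under 1 FPKM. In the shLSD1 line, 0 of the 4 neighbours that passed the filter were called, while 22.4% of all genes tested were called up and 10.4% down. With 4 genes, this count does not set the neighbours apart from genes in general. SERPINB13, SERPINB4, and SERPINB3 rose between 4.80-fold and 9.99-fold in that line.

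**Figure D4:**
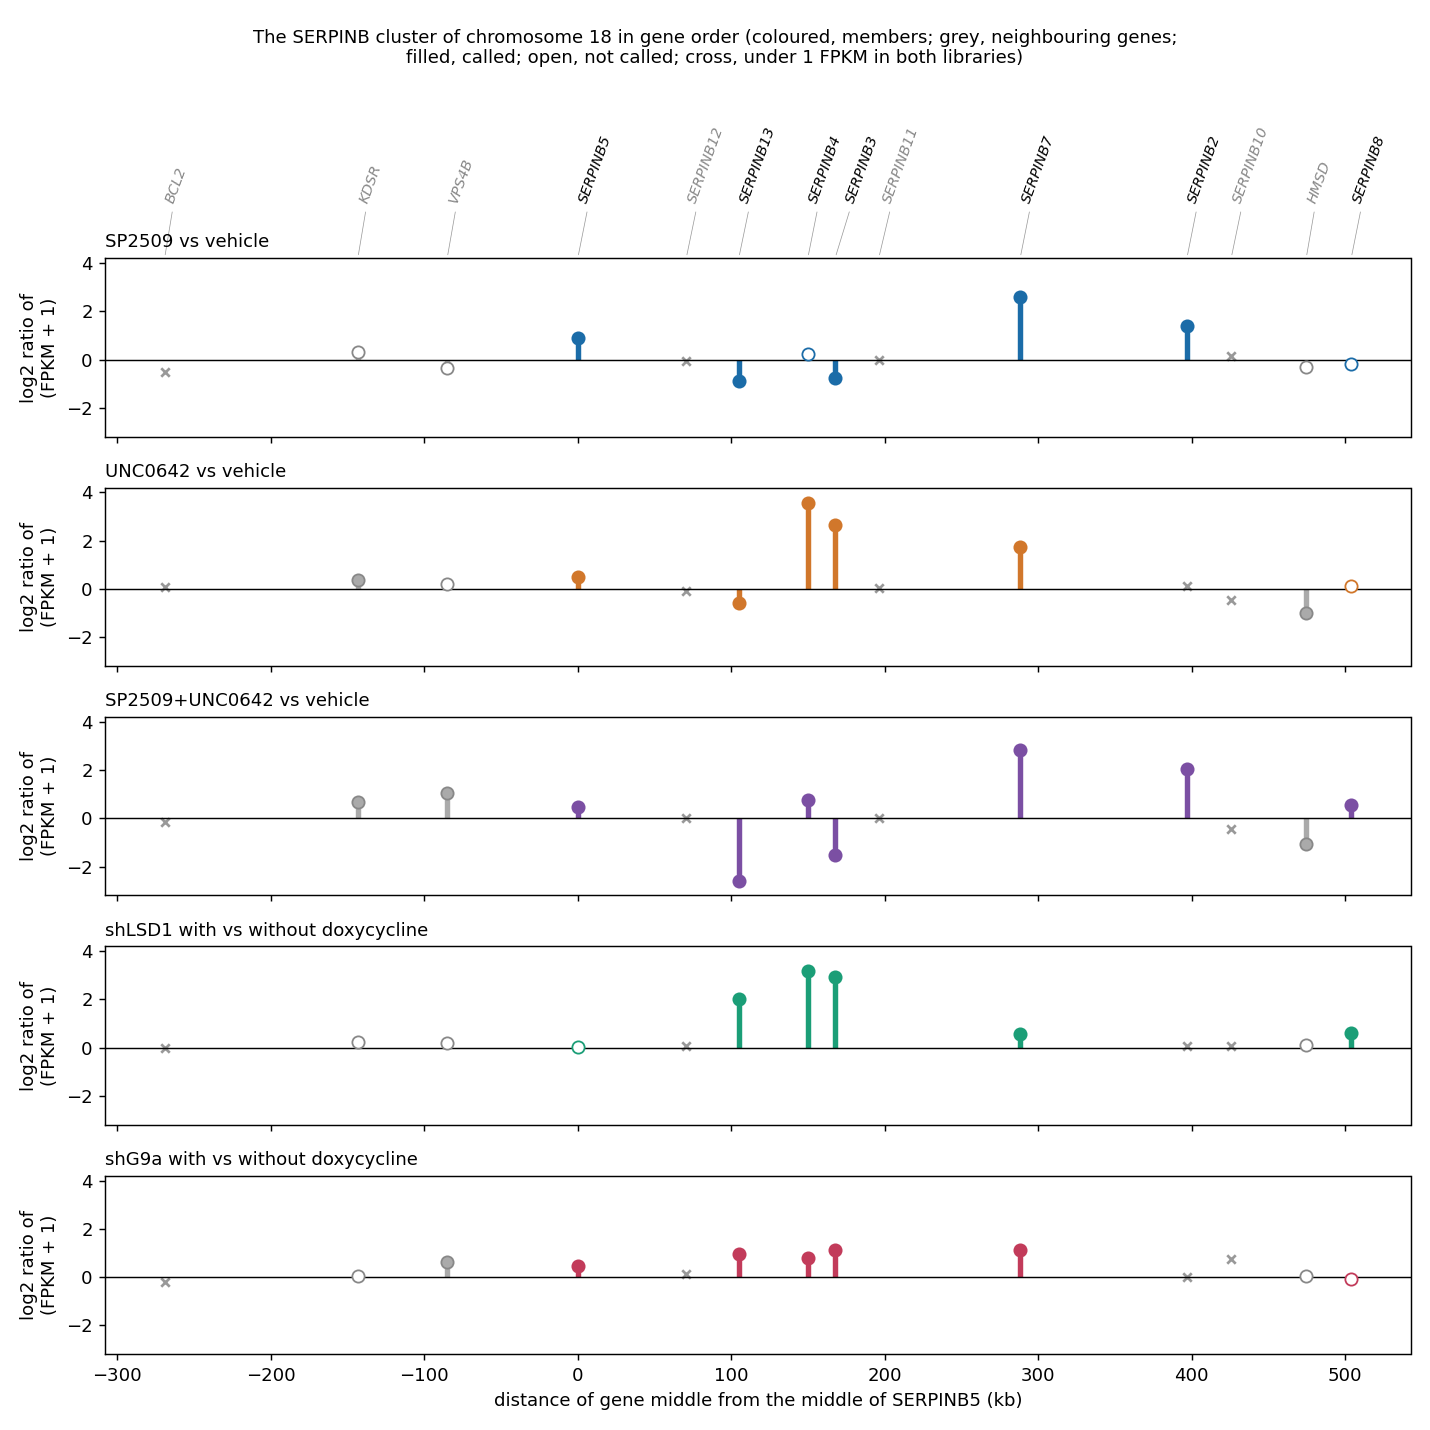
Log2 ratio of (FPKM + 1) for the chromosome 18 genes in gene order, by distance in kb of each gene's middle from that of SERPINB5, in the 5 comparisons; coloured bars are the members, grey bars neighbouring genes, and crosses genes under 1 FPKM in both libraries. SERPINB13, SERPINB4, and SERPINB3 all point up in both knockdown panels, and SERPINB13 points down in the 3 inhibitor panels.

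Beside the chromosome 6 cluster, 8 of 9 genes passed the filter in each comparison. With SP2509, 1 was called up and 3 down (18% and 37.3% of all genes tested). With UNC0642, 1 was up and 1 down (15.6% and 13.8%), and with the combination 3 up and 2 down (28.8% and 28.9%). In the shLSD1 line 1 was up and 2 down (22.4% and 10.4%), and in the shG9a line 3 up and 1 down (29.9% and 15.7%). Not every one of these calls is named below. TUBB2A, a beta tubulin, was 3.25 FPKM with vehicle and 36.2 FPKM with the combination, whereas RIPK1, a kinase of cell death signaling, fell with SP2509 (7.85 to 3.56 FPKM) and rose with the combination to 14.2 FPKM. Another beta tubulin, TUBB2B, rose with the combination (2.18 to 9.75 FPKM) and fell in both knockdown lines (1.75 to 0.469 FPKM and 1.90 to 0.105 FPKM). BPHL was called down with SP2509 and the combination, WRNIP1 down with SP2509, and GMDS down with the combination. PSMG4 was called up in the shG9a line, NQO2 was called in 0 of the 5 comparisons, and MYLK4 stayed under 1 FPKM.

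The proteases that these serpins inhibit were counted as well. Of 14 genes in the list, 12 were listed in the inhibitor table, and 9 passed the filter, with 6 called up and 1 down with SP2509 (18% and 37.3% of all genes tested), 4 up and 0 down with UNC0642 (15.6% and 13.8%), and 7 up and 2 down with the combination (28.8% and 28.9%). CTSL, which encodes cathepsin L and is a target of SERPINB3 and SERPINB13, was 27.0 FPKM in the vehicle library, 35.5 after SP2509, 89.7 after UNC0642, and 95.1 after both inhibitors. It was 49.8 FPKM without and 145 FPKM with Dox in the shLSD1 line, where SERPINB3 and SERPINB13 rose too, and 51.3 and 47.7 FPKM in the shG9a line. With the combination, the level of CTSL was high while those of SERPINB3 and SERPINB13 were low. CTSS, which encodes cathepsin S, was 12.8 FPKM in the vehicle library, 22.7 after SP2509, 12.3 after UNC0642, and 29.7 after both inhibitors. Among the knockdown libraries, 10 of the 11 listed proteases passed, with 4 up and 2 down in the shLSD1 line (22.4% and 10.4% of all genes tested) and 3 up and 4 down in the shG9a line (29.9% and 15.7%).

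Plasminogen activation genes, among them the targets of SERPINB2, were mostly called up with the inhibitors and mostly called down with the hairpins. Of 8 genes that passed, 7 were called up and 1 down with SP2509 (18% and 37.3% of all genes tested), 7 up and 0 down with UNC0642 (15.6% and 13.8%), and 7 up and 1 down with the combination (28.8% and 28.9%). In the shLSD1 line 0 were up and 6 down (22.4% and 10.4%), and in the shG9a line 1 was up and 5 down (29.9% and 15.7%). PLGRKT, which encodes a plasminogen receptor, was the exception both ways, down with SP2509 (5.65 to 2.29 FPKM) and with the combination (2.14 FPKM) and up in the shG9a line (4.70 to 6.88 FPKM). PLAU was 19.8 FPKM in the vehicle library, 72.6 after SP2509, 36.3 after UNC0642, and 52.1 after both inhibitors. PLAU was called down in the shG9a line (43.2 to 19.9 FPKM) and was not called in the shLSD1 line (42.2 to 35.5 FPKM). Controls differ here too, since PLAU was 19.8 FPKM with vehicle and 42.2 and 43.2 FPKM in the lines without Dox. PLAT was 8.26 FPKM with vehicle and 49.2 and 50.2 FPKM without Dox. PLGRKT was lower without Dox, at 4.30 and 4.70 FPKM against 5.65 FPKM with vehicle. The part of these control levels in the contrast between inhibitors and hairpins was not tested. S100A10 and ANXA2, which together bind plasminogen at the cell surface, rose with all 3 inhibitor treatments, S100A10 from 165 to between 267 and 460 FPKM and ANXA2 from 95.1 to between 129 and 158 FPKM.

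With the hairpins, serpins of other clades were called down or were not called. Of 7 that passed the filter, 0 were called up and 4 down in the shLSD1 line (22.4% and 10.4% of all genes tested), and 0 up and 7 down in the shG9a line (29.9% and 15.7%). With the inhibitors, 2 were up and 3 down with SP2509 (18% and 37.3%), 2 up and 2 down with UNC0642 (15.6% and 13.8%), and 4 up and 3 down with the combination (28.8% and 28.9%). SERPINH1, the collagen chaperone, was 51.4 FPKM in the vehicle library, 35.7 after SP2509, 28.7 after UNC0642, and 26.4 after both inhibitors. SERPINF1, which encodes pigment epithelium-derived factor, was called down in all 5 comparisons, from 11.3 FPKM with vehicle to between 4.15 and 7.94 FPKM with the inhibitors. No test of the difference between the clades was run.

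The genes whose 5 log2 changes were most like those of each member were named among 12356 genes with a mean of at least 1 FPKM, by the root mean square difference over the 5 comparisons, of which 3 share the vehicle library. Nearest to SERPINB4 were S100A9 (0.88), S100A7 (0.96), and MIR3176 (1.08), and nearest to SERPINB3 were SNORD127 (1.01), ZBED6CL (1.04), and S100A8 (1.13). S100A9 had log2 changes of 0.50 with SP2509, 3.80 with UNC0642, 2.56 with the combination, 3.27 in the shLSD1 line, and 0.12 in the shG9a line, and so differed from SERPINB4 most with the combination. Nearest to SERPINB13 was ZNF362 (0.54), to SERPINB7 a Y_RNA gene (0.41) and IL7R (0.54), to SERPINB2 EVA1A (0.17), and to SERPINB5 CAPRIN2 (0.09). SERPINB2 itself had a mean of 0.639 FPKM, under the minimum of 1 FPKM, so its distance depends on the pseudocount. Its log2 changes with SP2509 and the combination were 1.41 and 2.03, but 4.13 and 4.99 with a pseudocount of 0.1. For SERPINB1, SERPINB6, and SERPINB8 the nearest genes were PPIAP11 (0.12), CD58 (0.11), and IDH3A (0.10).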

How the data were processed

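The authors trimmed low-quality reads and adaptors, mapped paired-end reads of 150 bases to GRCh38 (release 87), and deposited FPKM values in 2 tables. The aligner, the counting tool, and the use of strand are not given in the sources used here. Groups were taken from the sample labels. Library totals were estimated from the FPKM steps of genes with 1 exon, and the reads of each gene from the length that makes all its values whole; the estimated reads sum to 99.6% to 99.8% of the totals. Ratios used a pseudocount of 1 FPKM, and intervals are Clopper-Pearson (scipy 1.17.1, numpy 2.4.6, pandas 2.3.3, Python 3.11.15). The steps were tested on simulated data. The alternatives tried are given in the closing section. The members and gene lists were chosen with earlier results of these data known. All members are named; of each other list, the 3 genes with the highest mean FPKM, and all other clade B genes and genes beside the clusters, with 1 gene of these lists not reported here; other markers, PLAT, and the overlapping genes were named after their values were seen. The combination was compared with each inhibitor alone after the data were seen. Promoter motifs were searched on both strands. Protein sequences were not used here.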

Additional observations from a re-analysis of the deposited data

Results flagged for a closer look

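A pair of SERPINB genes went in opposite directions with the inhibitor and the hairpin of the same enzyme. For LSD1, SERPINB3 had a log2 change of −0.75 with SP2509 and 2.95 in the shLSD1 line, and SERPINB13 had −0.91 with SP2509 and 2.02 in the shLSD1 line. For G9a, SERPINB13 had −0.57 with UNC0642 and 0.96 in the shG9a line. With 1 library per condition, these differences between inhibitor and hairpin were not tested. Controls differ too, since SERPINB13 was 17.3 FPKM with vehicle and 4.02 and 5.04 FPKM in the lines without Dox, a difference between tables that was not tested. On the sum of SERPINB3 and SERPINB4, the SP2509 library was not called, with a log2 change of −0.33.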

How the results depend on the processing

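With 1 library per condition no replicate could be left out, and counting error is the only error given. Of 320 log2 changes of single members under alternatives, 291 kept their call or stayed uncalled, 26 were no longer called, and 2 were newly called. In 1 case a called change turned in direction: SERPINB4 with the combination, −0.27 when SERPINB3 and SERPINB4 were counted as 1 gene. That alternative was chosen after seeing the data. Changes that stayed uncalled could switch sign, as SERPINB5 did in the shLSD1 line, from 0.036 to −0.084 with centring on the median. A pseudocount of 0.1, no filter on low values, the fewest reads per gene, and the fold change alone changed no call of a member. A fold threshold of 2 left 2 members up and 0 down with SP2509, 3 up and 0 down with UNC0642, 2 up with the combination, 3 up in the shLSD1 line, and 2 up in the shG9a line. A minimum of 5 FPKM left 3 up with SP2509, 3 with the combination, 4 in the shLSD1 line, and 4 in the shG9a line. Centring on the median, and the mean of both libraries without Dox as the control, each gave 1 member down in the shG9a line, SERPINB6, with log2 changes of −0.47 and −0.38.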
